A study of Homo sapiens with 8 samples.

Results

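The chaperonin containing TCP1 (CCT, also called TRiC) is a cytosolic folding machine built of a pair of stacked rings, and each ring holds 1 copy of each of 8 related subunits. Unfolded actin, tubulin and several beta-propeller proteins enter its cavity and are closed in while the ring hydrolyses ATP. Because every ring needs 1 copy of each subunit, the complex gives a direct question about balance: how evenly are the 8 messages occupied by ribosomes, and does that change when METTL5 is lost? The 8 subunit genes TCP1, CCT2, CCT3, CCT4, CCT5, CCT6A, CCT7 and CCT8 were taken by name, and all 8 were found among the 11244 genes of the translation efficiency (TE) table. TE is the ratio of ribosome-protected fragments (RPF), which show how many ribosomes sat on a message, to input RNA, which shows how much message there was.

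The study profiled ribosomes in cells labelled HepG2, a human liver cancer line, with METTL5 intact (METTL5-WT) or with METTL5 disrupted by CRISPR-Cas9 (METTL5-KO). METTL5 places an N6-methyladenosine mark on 18S ribosomal RNA. There were 8 libraries, 2 replicates each of METTL5-WT input, METTL5-KO input, METTL5-WT RPF and METTL5-KO RPF, and all cells of either genotype had been given cycloheximide at 100 µg/mL for 7 minutes, which stops ribosomes on the message. The sample labels give exons 2 to 3 as the excised part, whereas the study's methods name other exons. The study's cells of either genotype had been expanded from an isolated clone, so clone and genotype cannot be told apart, and nothing says that replicates came from separate cultures. The p-values below therefore measure the spread between these libraries, which may be technical.

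Input libraries held 10710226 to 15307257 counts, and RPF libraries held 3970779 to 9255921 reads in the TE table, with both METTL5-KO RPF libraries deeper than both METTL5-WT ones. METTL5 itself had 490 and 542 input counts in METTL5-WT against 208 and 151 in METTL5-KO, and 158 and 226 RPF reads against 41 and 21, so the targeted gene was lower in each library labelled METTL5-KO. The cell line label went against its markers. All 10 hepatocyte markers examined, ALB, APOA1, APOB, APOA2, AFP, SERPINA1, TF, TTR, FGB and HNF4A, had at most 9 input counts in any library, their sum was 4 to 14 counts per library, and SERPINA1, TTR and FGB were at 0 in all 4. The 10 markers of other cell types were mixed. KRT7, a keratin of simple epithelia, had 8808 to 12259 counts, COL1A1 had 429 to 937 and PDGFRB had 52 to 83. SPP1, listed for the same cell type as KRT7, had at most 2, and the rest, COL1A2 among them, had at most 9. The values are therefore those of libraries labelled HepG2, and no other cell identity was assigned.

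The sequence around each start codon is shown because initiation is where ribosomes join a message. Each line holds 30 bases of the canonical GENCODE 44 transcript in hg38, 12 before the ATG, the ATG itself in capitals, and 15 after it.
TCP1: gctgccgtcaagATGgaggggcctttgtcc
CCT2: ctcctcggaaccATGgcgtccctttccctt
CCT3: catcgcgtcgccATGatgggccatcgtcca
CCT4: gcggagtttgccATGcccgagaatgtggca
CCT5: ggttgttgcaccATGgcgtccatggggacc
CCT6A: gctggagcagctATGgcggcggtgaagacc
CCT7: taagcttccaaaATGatgcccacaccagtt
CCT8: tgcaggctggccATGgcgcttcacgttccc
A purine stood 3 bases before the ATG in 8 of 8 subunits, against 87.2% of the 11021 TE table genes with an annotated start, and a G followed the ATG in 5 of 8, against 54.0%. Both features, which are the best known part of a strong start context, were held by TCP1, CCT2, CCT5, CCT6A and CCT8, 5 of 8 against 47.0%. CCT5, the subunit with the most RPF, and TCP1, the subunit with the least, both had an A before and a G after the start codon, so the extremes described next had the same letters at these places.

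The 8 genes lie on 7 chromosomes of hg38. TCP1 (ENSG00000120438) spans chr6:159778498-159789703 on the minus strand. It overlaps ACAT2 on the other strand and holds SNORA20 and SNORA29. CCT2 (ENSG00000166226) spans chr12:69585426-69601570 on the plus strand, and CCT3 (ENSG00000163468) chr1:156308968-156367873 on the minus strand. CCT4 (ENSG00000115484) spans chr2:61868085-61888671 on the minus strand, and CCT7 (ENSG00000135624) lies on the same chromosome at chr2:73233420-73253021 on the plus strand. CCT5 (ENSG00000150753) spans chr5:10249929-10266389 on the plus strand, CCT6A (ENSG00000146731) chr7:56051685-56063989 on the plus strand with SNORA15 and SNORA22B inside it, and CCT8 (ENSG00000156261) chr21:29055805-29073797 on the minus strand. Non-coding genes overlap CCT4, CCT5 and CCT8, in CCT8 also on the same strand, and TSACC overlaps CCT3 on the other strand. The input counting used the strand of the read. The coding sequences are close in length, from 1596 bases in CCT6A to 1671 in TCP1, coding for 531 to 556 residues, so the RPF levels below are given per kilobase of coding sequence.

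In METTL5-WT, CCT5 had the highest RPF density, with 20211 and 21741 normalized reads per coding kilobase in replicates 1 and 2. CCT3 followed with 14070 and 13811, and CCT6A with 9486 and 9138. CCT7 had 6861 and 6941 normalized reads per coding kilobase. The next 4 subunits formed a lower set. CCT8 had an RPF density of 3199 and 3177, and CCT4 had 2921 and 2988. CCT2 had 2079 and 2242, and TCP1, which gave the complex its name, was lowest with 1481 and 1479. No neighbours in this order overlapped between replicates, so the replicate spread was small beside the differences between subunits. All 8 were well expressed, and the RPF density of TCP1 stood at percentiles 89.9 and 90.0 of all genes in the table and that of CCT5 at percentile 99.5 in both libraries.

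An equal share would give each subunit 12.5% of the summed RPF density. CCT5 instead took 33.5% and 35.3% in the METTL5-WT libraries, and TCP1 took 2.46% and 2.40%. The ratio of the highest to the lowest was 13.6 and 14.7. The SD over the 8 subunits of log2 RPF density was 1.36 in both libraries.

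Input RNA was more even. CCT5 was again highest, with 7777 and 7306 normalized input reads per coding kilobase, and TCP1 again lowest with 1678 and 1620, a ratio of 4.63 and 4.51. CCT6A had 5868 and 5757 and CCT3 had 4909 and 4579. The other 4 lay close together, from CCT7 at 2177 and 2240 and CCT2 at 2087 and 2112 to CCT8 at 2038 and 1954 and CCT4 at 2076 and 1872, and the last pair overlapped. The SD of log2 input density was 0.848 ± 0.00868 (SD, n = 2), below the RPF value in each library. Input was counted over all exons, so reads from untranslated parts are included in these densities. Per kilobase of exon, CCT6A stood above CCT5 in METTL5-WT input, with 2435 and 2389 against 2243 and 2107. TCP1 stayed lowest by that measure, with 574 and 554.

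**Figure D1:**
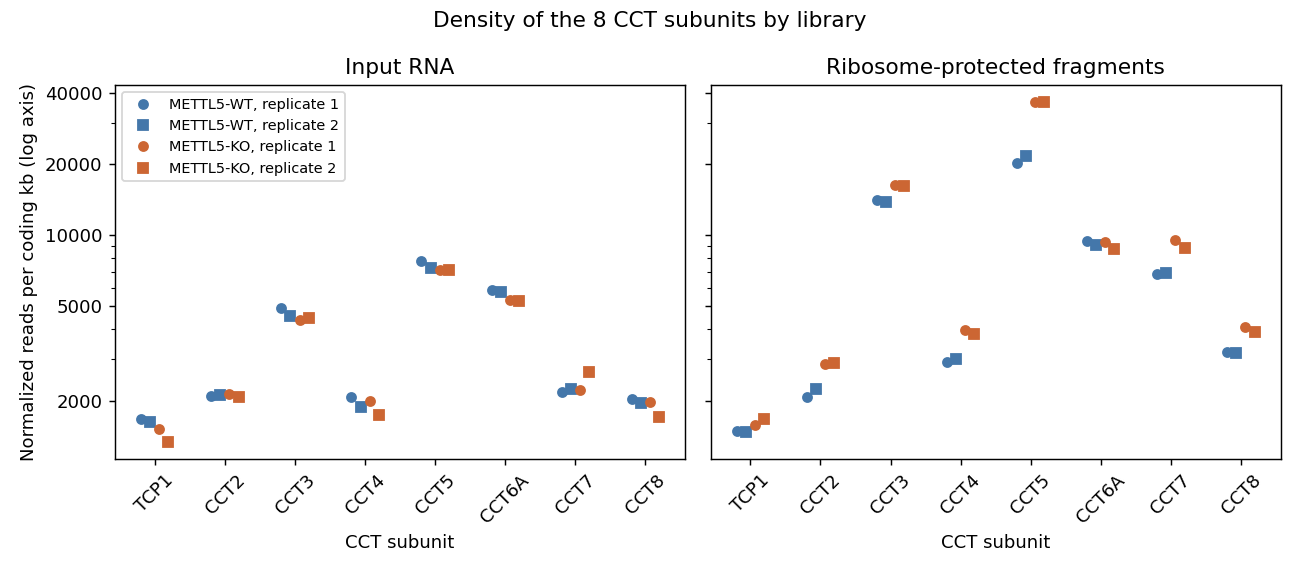
Normalized reads per coding kilobase (log axis) of each CCT subunit in input RNA (left) and RPF (right), 1 point per library, METTL5-WT in blue and METTL5-KO in orange. Subunits lie closer together in input than in RPF, and CCT5 and TCP1 mark the ends of both panels. In RPF the METTL5-KO points lie above the METTL5-WT points for all subunits except CCT6A.

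The ratio of RPF to input, as log2 TE, therefore differed among subunits before any loss of METTL5. A log2 TE of 0.0086 was the median of all 11244 genes in METTL5-WT, and 25% of genes lay below -0.81 and 25% above 0.77. CCT7 had a log2 TE of 1.64 ± 0.017 (SD, n = 2), CCT3 of 1.56 ± 0.052 and CCT5 of 1.48 ± 0.14, and the ranges of CCT3 and CCT5 overlapped. CCT6A at 0.68 ± 0.019, CCT8 at 0.68 ± 0.036 and CCT4 at 0.58 ± 0.13 formed a middle set in which neighbours overlapped. CCT2 at 0.040 ± 0.065 and TCP1 at -0.16 ± 0.034 were near the median of all genes. The order of TE was not the order of RPF density: CCT7 had the highest TE but only the fourth RPF density, having far less input than CCT5. Input reads from untranslated parts enter this ratio without a length correction. The 3' untranslated part is 1606 bases in CCT5 and 144 in CCT7. Whether the order of TE among the subunits depends on this was not tested.

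A fragment counts for a subunit only where it can be placed there. The RPF reads were mapped with up to 2 mismatches and kept only with a single place of mapping, and all subunits except CCT2 have at least 1 named pseudogene elsewhere in the genome. The first 30 coding bases of TCP1 and CCT5 are shown beside some of their copies, with the bases that differ in the copy in capitals.
TCP1: atggaggggcctttgtccgtgttcggtgac
TCP1P3: atggaggggcctttgtccgtgttcggAgac
TCP1P1: atggagAggcctttgtccgtgttTggGgac
CCT5: atggcgtccatggggaccctcgccttcgat
CCT5P1: atggcAtccatgggAaccctcgccttTgat
The copies lie on the plus strand at chr12:19941372-19941401 (TCP1P3), chr7:42794906-42794935 (TCP1P1) and chr5:115512077-115512106 (CCT5P1). TCP1P3 differs at 1 of these bases and the other copies shown at 3. Not all copies are shown: CCT5P2 on chromosome 13, for example, aligned over 1626 bases with CCT5 at 91.9% identity. Over the whole coding sequence, the share of 30-base windows with an exact match elsewhere in hg38 was 36.5% for TCP1, 30.0% for CCT8, 25.5% for CCT6A, 19.2% for CCT5, 8.67% for CCT7 and 1.57% for CCT4, and it was 0 for CCT2 and CCT3. Allowing 2 mismatches raised this to 93.1% for TCP1, 87.9% for CCT8, 81.8% for CCT6A and 78.5% for CCT5, and to 48.3% for CCT7, 17.3% for CCT4 and 3.29% for CCT3, while CCT2 stayed at 0. Counts placed on the pseudogenes themselves were few in input, at most 0.443% of those of the parent gene, for CCT6P1 with 255 counts in the 4 libraries together.

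The RPF density was therefore computed again with the length cut to the windows without a match. All RPF reads of a subunit were kept and only the length changed, so reads placed in other windows raise these values. With windows without an exact match as the length, only the end of the order changed. TCP1 rose to a mean of 2373 normalized RPF reads per kilobase of such windows in METTL5-WT and stood above CCT2 at 2200. Windows without a match within 2 mismatches numbered 114 in TCP1 and 343 in CCT5. With these as the length, CCT5 stayed highest at 99437. CCT6A came next at 52148, followed by CCT8 at 26927 and TCP1 at 21694, and CCT2 was lowest at 2200. CCT2 and CCT3, whose coding sequence is almost free of such matches, kept their levels, with CCT3 at 14675 against 2200 for CCT2. CCT5 stood highest under each of these lengths, whereas the place of TCP1 depended on the length used. How many of the windows were in fact unmappable in the authors' pipeline was not tested. The log2 TE values above rest on the same RPF reads and were not computed again, so their order among the subunits carries this limit too.

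**Figure D2:**
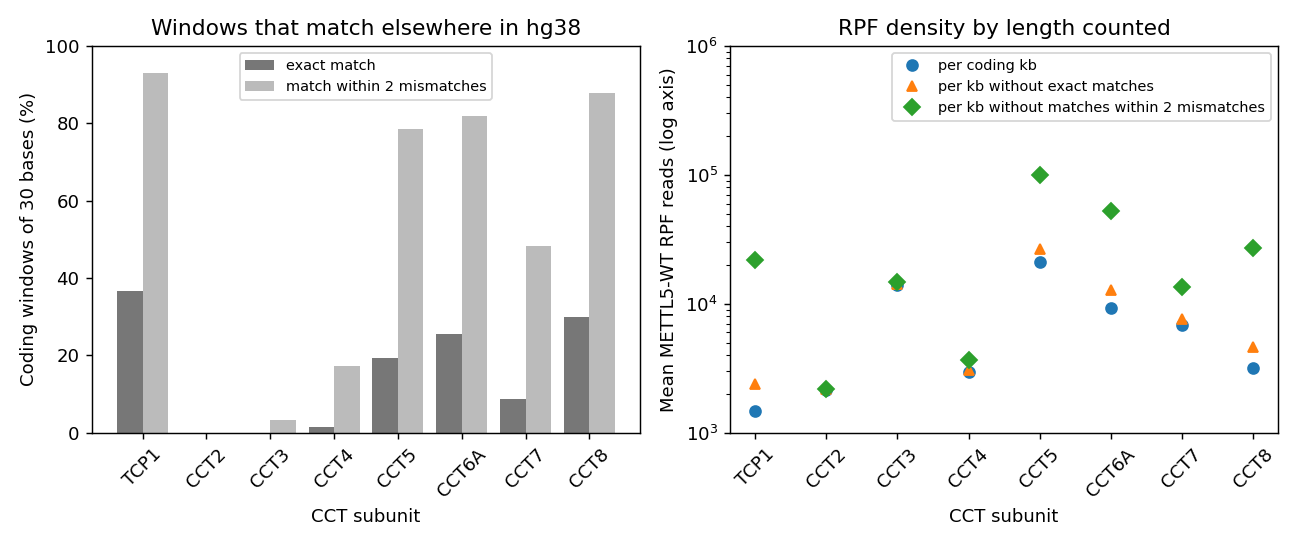
Left, share of 30-base coding windows (%) of each subunit that match elsewhere in hg38, exactly (dark bars) or within 2 mismatches (light bars). Right, mean METTL5-WT normalized RPF reads per kilobase (log axis), with all reads of the subunit divided by its coding length or by the length of its windows without matches. CCT2 and CCT3 hardly move between the 3 lengths, and TCP1 moves from 1480 to 21694.

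In METTL5-KO, the RPF of most subunits was higher than in METTL5-WT, while their input RNA was not called different. Of the 8 subunits, 0 were called in input (edgeR), 5 rose in RPF and 1 rose in TE (limma, adjusted p under 0.05 over all genes tested), and none fell. CCT5 was the subunit that rose most, 1.75-fold in RPF and 1.84-fold in TE. CCT6A was the subunit with the least change in RPF.

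In input, 22.4% of all 14054 genes tested were called by edgeR, and 0 of the 8 subunits were, with 0 of them at an unadjusted p under 0.05. DESeq2 called 0, against 15.9% of genes, and put 1 at an unadjusted p under 0.05. Log2 changes of input ran from -0.22 ± 0.11 (SE) for TCP1 to 0.13 ± 0.12 for CCT7, with a median of -0.10 against -0.0043 for all genes. These are bulk lysates, in which fewer cells that express a gene and less RNA per cell cannot be told apart. TCP1 had normalized input values of 2804 and 2707 in METTL5-WT against 2534 and 2235 in METTL5-KO. CCT5 had 12645 and 11880 against 11653 and 11644. In TCP1, CCT3, CCT5 and CCT6A, both METTL5-KO values lay below both METTL5-WT values, a pattern that 31.4% of all genes had in that direction, and in the other 4 the genotypes overlapped. Without METTL5-KO replicate 1, the log2 input changes from edgeR ran from -0.30 for TCP1 to 0.26 for CCT7, with a median of -0.11.

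In RPF, 16.2% of the 11240 genes tested were called higher in METTL5-KO by limma, and 5 of the 8 subunits were. The edgeR test on recovered reads also called 5, against 14.3% of genes, and DESeq2 called 6, against 14.1%, by adding CCT3. The median log2 RPF change of the 8 subunits was 0.36, and that of all genes was 0.022. CCT6A alone overlapped between genotypes, and in the other 7 both METTL5-KO values lay above both METTL5-WT values, which 32.4% of all genes showed.

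CCT5, the epsilon subunit, had normalized RPF values of 32863 and 35351 in METTL5-WT against 59575 and 59658 in METTL5-KO. The METTL5-KO libraries were nearly equal and lay far above the METTL5-WT ones. The log2 RPF change was 0.81 ± 0.11 (SE), with a limma adjusted p of 4.7e-05 and an edgeR adjusted p of 1.9e-06, and the adjusted p ran from 1.1e-17 to 0.010 over its alternatives. With quantile normalization the log2 RPF change of CCT5 was 0.43. CCT7, the eta subunit, had 11197 and 11327 against 15530 and 14489, and rose by a log2 change of 0.41 ± 0.11 (limma adjusted p = 0.0071). CCT2, the beta subunit, had 3343 and 3606 against 4571 and 4629, and also rose by 0.41 ± 0.093 (limma adjusted p = 0.0037). The folds were 1.33 for CCT7 and 1.32 for CCT2, and neither gene had overlapping genotypes.

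CCT4, the delta subunit, had RPF values of 4732 and 4841 in METTL5-WT against 6454 and 6214 in METTL5-KO, a log2 change of 0.40 ± 0.10 (limma adjusted p = 0.0066). CCT8, the theta subunit, had 5269 and 5232 against 6745 and 6420, a log2 change of 0.33 ± 0.10 (limma adjusted p = 0.020). The METTL5-KO values were higher in both genes in every pair of libraries. The remaining 3 subunits did not pass the limma test. CCT3, the gamma subunit, had 23047 and 22622 against 26698 and 26585, a log2 difference of 0.22 ± 0.10 (limma adjusted p = 0.11). TCP1, the alpha subunit, had 2475 and 2471 against 2622 and 2785, a log2 difference of 0.13 ± 0.10 (limma adjusted p = 0.35). CCT6A, the zeta subunit, had 15140 and 14584 against 14992 and 13929, and its log2 difference was -0.040 ± 0.10 (limma adjusted p = 0.80).

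The RPF calls depended on the libraries and the scaling. With a replicate left out, a genotype rests on a single library. CCT2, CCT4, CCT7 and CCT8 each lost the call in at least 1 such fit, and CCT5 did not. The log2 RPF change then ran from 0.75 to 0.86 for CCT5 and from 0.29 to 0.36 for CCT8. With quantile normalization, which called 14.0% of genes higher, CCT5 and CCT2 were called, the median was 0.16, and CCT3 had a log2 difference of -0.26.

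**Figure D3:**
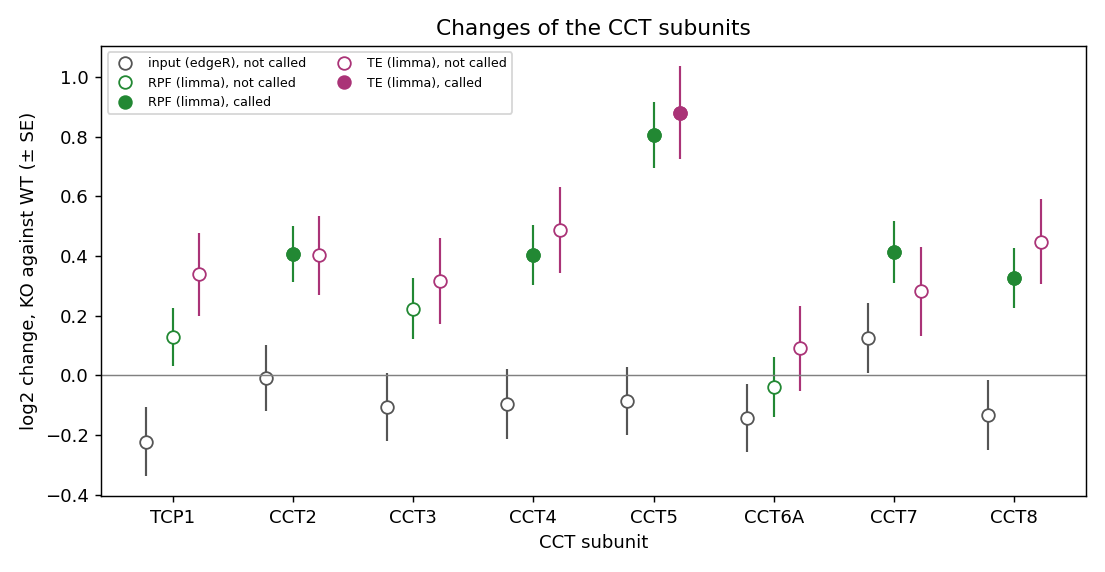
Log2 change in METTL5-KO against METTL5-WT of each CCT subunit in input (grey, edgeR), RPF (green, limma) and TE (purple, limma), with bars of 1 SE and filled points for an adjusted p under 0.05. The 8 input points lie near or below 0, RPF is filled for 5 subunits, and TE is filled for CCT5 alone.

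TE takes the RPF change beyond that of input, so a fall in input and a rise in RPF add up. All 8 subunits had a positive TE difference, as 51.8% of all genes had, with a median of 0.37 against 0.021 for all genes. In 8 of 8, both METTL5-KO values of TE lay above both METTL5-WT values, which 28.1% of genes showed. CCT5 alone was called by limma, where 2.70% of genes were called higher. The log2 TE of CCT5 was 1.38 and 1.57 in METTL5-WT against 2.35 and 2.36 in METTL5-KO. Its log2 TE change was 0.88 ± 0.16 (SE), with a limma adjusted p of 0.0066 and an edgeR adjusted p of 0.0011, and the adjusted p ran from 2.7e-09 to 0.15 over its alternatives. The edgeR test called CCT5 alone too, against 3.11% of genes called higher.

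At an unadjusted limma p under 0.05, 6 of the 8 subunits passed. For the other 7 subunits the TE differences had limma adjusted p-values from 0.061 to 0.75. CCT4 had a log2 TE of 0.49 and 0.67 in METTL5-WT against 1.00 and 1.14 in METTL5-KO, and its log2 difference was 0.49 ± 0.14. CCT8 had 0.65 and 0.70 against 1.06 and 1.19, a difference of 0.45 ± 0.14, and CCT2 had -0.0060 and 0.086 against 0.42 and 0.47, a difference of 0.40 ± 0.13. These 3 came closest to the threshold. TCP1 had a log2 TE difference of 0.34 ± 0.14 and CCT3 of 0.32 ± 0.14. CCT7 had 0.28 ± 0.15, with normalized input values of 3553, 3656, 3613 and 4319 of which METTL5-KO replicate 2 was the highest, and CCT6A had 0.090 ± 0.14. DESeq2 on the recovered reads called 4 subunits, CCT5, CCT4, CCT8 and CCT2, against 5.80% of genes.

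By the protocol, input and RPF of a given genotype and number came from a single lysate. Their deviations between replicates had an r of -0.016 in METTL5-WT and 0.053 in METTL5-KO, so the values show no sign of this pairing. With the lysate as a replicate block, limma called 2 subunits, against 4.17% of genes higher. These were CCT5 (limma adjusted p = 0.0031) and CCT4 (limma adjusted p = 0.038, and 0.020 to 0.33 over its alternatives). Without METTL5-KO replicate 2 the limma adjusted p of CCT5 was 0.086, and without METTL5-WT replicate 1 it was 0.087, so that CCT5 was not called there, and without either of the other lysates it was 0.031 and 0.033. The log2 TE change of CCT5 itself stayed between 0.78 and 0.98 when 1 lysate of either genotype was left out.

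Base composition moved with the TE differences. The coding GC content of the subunits ran from 41.7% in CCT8 to 51.5% in CCT7, and all 8 fell into bins 2 to 5 when the table's genes were split into 10 equal bins by GC content. The median TE difference of all genes in those bins was 0.27, 0.22, 0.14 and 0.087, and it was -0.37 in bin 10, which had the highest GC content. Within METTL5-KO, input replicate 2 against replicate 1 also moved with GC content, from a median log2 ratio of -0.27 in bin 1 to 0.21 in bin 10, and among the subunits with log2 ratios of -0.21 for CCT8, -0.20 for CCT4 and -0.18 for TCP1 against 0.26 for CCT7. The ratios of CCT2, CCT6A, CCT5 and CCT3 were near 0, at -0.034, -0.016, -0.0011 and 0.029, although the bin medians were -0.20 for CCT2 and -0.15 for CCT6A. With a smooth trend on GC content removed, the median TE difference of the 8 subunits was 0.21 and CCT6A had -0.11. CCT5 was called with a log2 TE change of 0.75 (limma adjusted p = 0.012), where 1.84% of genes were called higher, and it was also called after quantile normalization with 0.65 (limma adjusted p = 0.033), where 1.82% were. With the GC trend removed from RPF, 4 subunits were called, CCT8 no longer among them, against 16.2% of genes.

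**Figure D4:**
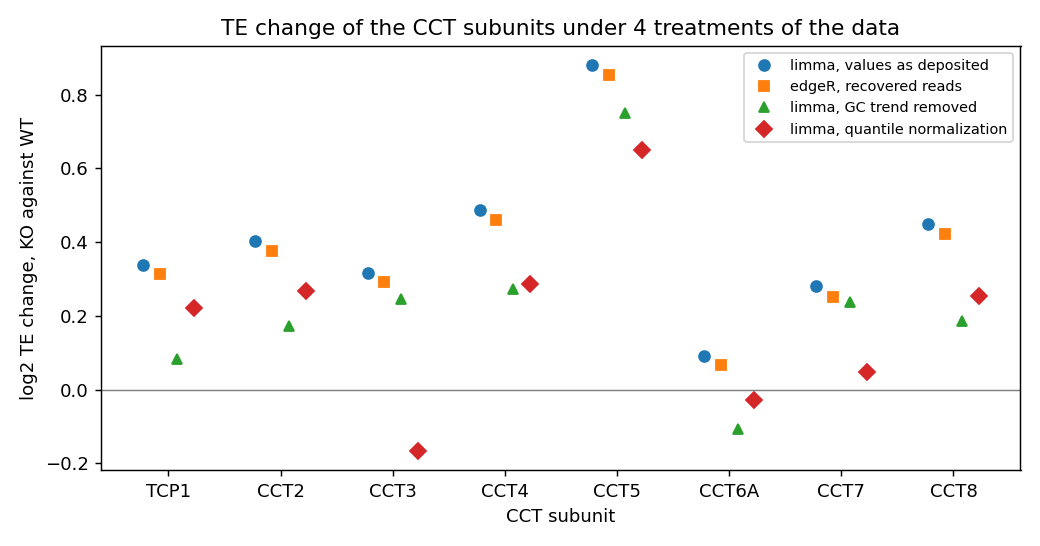
Log2 TE difference in METTL5-KO against METTL5-WT of each CCT subunit from limma on the deposited values (circles), edgeR on recovered reads (squares), limma with the GC trend removed (triangles) and limma after quantile normalization (diamonds). CCT5 is highest in each treatment, from 0.65 to 0.88, and CCT6A falls below 0 in the last 2, as CCT3 does after quantile normalization.

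CCT5 took a larger part of the complex's RPF in METTL5-KO. Its share of the summed RPF density went from 33.5% and 35.3% in METTL5-WT to 43.4% and 44.3% in METTL5-KO. The share of CCT3 went from 23.3% and 22.5% to 19.3% and 19.6%, and that of CCT6A from 15.7% and 14.9% to 11.1% and 10.5%. TCP1 went from 2.46% and 2.40% to 1.86% and 2.01%. Shares sum to 100%, so a share can fall while the RPF value itself rises. The RPF values of CCT3 and TCP1 were higher in both METTL5-KO libraries. Those of CCT6A overlapped between genotypes, with a log2 RPF difference of -0.040. In input, the share of CCT5 stayed between 26.6% and 27.2% in all 4 libraries.

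**Figure D5:**
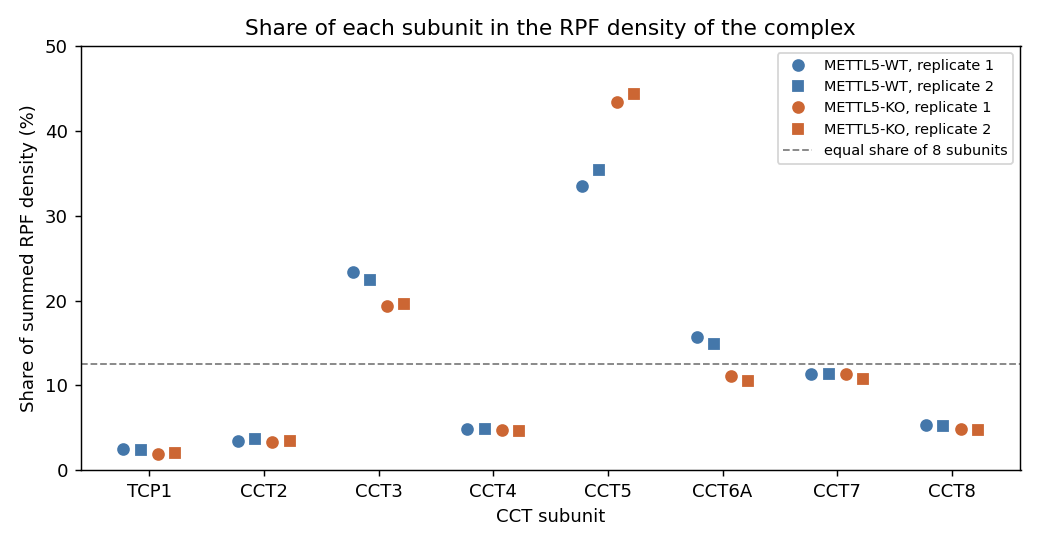
Share (%) of each CCT subunit in the summed RPF density per coding kilobase of the 8 subunits, 1 point per library, METTL5-WT in blue and METTL5-KO in orange, with the equal share of 12.5% dashed. The CCT5 points lie at 33.5% and 35.3% for METTL5-WT against 43.4% and 44.3% for METTL5-KO, while the shares of CCT3 and CCT6A, which sum to 100% with the others, are lower in METTL5-KO.

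Relative to the mean of the other 7 subunits on the log2 scale, CCT5 stood at 2.24 and 2.33 in METTL5-WT RPF against 2.81 and 2.84 in METTL5-KO RPF. The difference was 0.54 (two-sided exact permutation p = 0.333, the smallest that 2 libraries against 2 can give). In input the same measure differed by -0.00116 (exact permutation p = 1). The SD over the subunits of log2 RPF density was 1.36 ± 0.00148 (SD, n = 2) in METTL5-WT and 1.46 ± 0.0142 in METTL5-KO (exact permutation p = 0.333). Without CCT5 the SD was 1.18 against 1.15, and the difference of the SD between genotypes then changed sign. In input it was 0.848 against 0.849 (exact permutation p = 1). The summed RPF density of the complex was 60913 ± 854 (SD, n = 2) in METTL5-WT and 83572 ± 1084 in METTL5-KO, 1.37-fold (exact permutation p = 0.333), and the summed input density was 28026 ± 827 against 26582 ± 209.

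The 20S proteasome core, a second complex of fixed stoichiometry, gives a comparison. For the 13 of its 14 listed subunits in the TE table, the summed RPF density was 1.39-fold higher in METTL5-KO, close to that of CCT, but the SD of log2 RPF density went from 1.04 to 0.924, lower in both METTL5-KO libraries. The same SD over the 6 subunits of prefoldin, which hands unfolded actin and tubulin to CCT, was 1.32 in either genotype. The difference between these complexes was not tested.

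Among the subunits, the centred log2 values over the 8 libraries correlated with the mean of the other 7 with a Pearson r of 0.919 to 0.970 for CCT5, CCT4, CCT2, CCT3 and CCT8, and of 0.654 for CCT7, 0.555 for TCP1 and -0.093 for CCT6A. Each gene was centred on its mean within input and within RPF, so the 8 points carry the genotype difference and the libraries' own deviations and are not independent. Of 8595 genes with a mean of at least 100, the 5 most like the mean of the 8 subunits were MED4 (r = 0.999), VDAC3 (0.996), PBK (0.990), PSAT1 (0.984) and SPIN1 (0.983). As many as 302 genes, or 3.51%, reached an r of 0.9.

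Genes that work with CCT were described from fixed lists, with limma for RPF and TE and edgeR for input. Over all genes, 22.4% were called in input, 16.2% were called higher and 13.1% lower in RPF, and 2.70% were called higher and 2.08% lower in TE. Of the 6 prefoldin subunits, 2 rose in RPF, PFDN2 by a log2 change of 0.48 ± 0.13 and VBP1 by 0.49 ± 0.13, 0 were called in TE, where edgeR called VBP1, and PFDN4 fell in input. Of the 4 cofactors PDCL, PDCL3, TXNDC9 and PDCD5, which bind CCT and tune its cycle or load it, 0 were called in input, RPF or TE by limma or edgeR. The chaperonin-related genes CCT6B, MKKS, BBS10 and BBS12 likewise had 0 of 4 called in each.

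The obligate clients did not share a single direction. Of 12 actins and tubulins tested, 3 rose in RPF, ACTB, ACTG1 and TUBB4B, or 3 of 12 against the 16.2% of all genes, and edgeR called 2 of them. TUBA1C alone was called in TE, where it fell by 0.53 on the log2 scale (limma adjusted p = 0.0495), and TUBA1B rose in input. With the GC trend removed, ACTB and ACTG1 were also called in TE, both higher with a log2 change of 0.68. Tubulin genes are close copies of each other. Only reads with a single place of mapping were kept, so reads from stretches that these genes share can be missing. Of the tubulin cofactors, which take tubulin on from CCT, TBCB rose and TBCA fell in input, 0 of 4 were called in RPF, and TBCA rose in TE by 0.64 ± 0.14 (limma adjusted p = 0.017), a call that was lost with the GC trend removed. Of 13 other genes listed as clients, 0 rose and 6 fell in RPF, PLK1, VHL, FZR1, STRN4, CDC20 and RPTOR. Most of the 13 code for beta-propeller or cell cycle proteins, but not all, VHL being an exception. The share of all genes that fell in RPF was 13.1%, and FZR1 and RPTOR lost the call with the GC trend removed. PLK1 and FZR1 also fell in input, and STRN4, a scaffold of a phosphatase complex, fell in TE by 0.64 on the log2 scale (limma adjusted p = 0.041), a call also lost with the GC trend removed.

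Other folding machines moved as follows. Of 12 genes of the cytosolic HSP70 and HSP90 system, 7 rose in RPF, against 16.2% of all genes, and 3 in TE, against 2.70%. HSPA4, 1 of these 3, lost its TE call with the GC trend removed. HSPB1 rose in input and HSP90AA1 fell there. STIP1, which links HSP70 to HSP90, rose in RPF by a log2 change of 0.68 ± 0.097 and in TE by 0.68 ± 0.14 (limma adjusted p = 0.012). HSPA1B rose in TE by 1.01 ± 0.28 (limma adjusted p = 0.0495), but it had only 39 to 202 RPF reads and has the near-identical copy HSPA1A, so its value is uncertain. Of the mitochondrial chaperonin, HSPE1 fell in TE by 1.14 on the log2 scale with 18 to 26 RPF reads per library, and HSPD1 was not called. Of the 13 subunits of the 20S core tested, 10 rose and 1, PSMA7, fell in RPF, against 16.2% and 13.1% of all genes. PSMA7 also fell in input, with a log2 change of -0.86 (edgeR adjusted p = 7.3e-06) against -0.45 in RPF. Its TE difference was 0.39 and not called. PSMB2 and PSMB3 rose in input. In TE, 3 rose, against 2.70%, led by PSMA5 with 0.93 ± 0.15 (limma adjusted p = 0.0042) and PSMB1 with 0.81 ± 0.14 (limma adjusted p = 0.0050). PSMA4 lost its TE call with the GC trend removed.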

How the data were processed

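Input RNA and RPF were sequenced for METTL5-WT and METTL5-KO, and groups and replicate numbers follow the sample titles. The authors aligned input reads to hg38 with STAR 2.7.3a, and their featureCounts table gives raw counts per gene over exons. They trimmed RPF reads, removed ribosomal RNA and mapped the rest on RiboToolkit. In the TE table, the authors call the signal values RPKM, but 100% were whole reads (within 0.01 of a whole number) over a size factor per library, and 100% of its input values equalled the count table, so they are not per length. The fold changes and p-values that the authors computed for TE stand in the same table and were not used. Of the count table, 3 broken lines were left out and 60718 genes kept.

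For input, edgeR 4.0.16 (quasi-likelihood, TMM, filterByExpr) was run on 14054 genes. For RPF and TE, a single limma 3.58.1 model (eBayes, trend) of 8 libraries was fitted to log2(value + 1) for 11240 genes, after a filter of 1 on the mean in either library type. This scale understates fold changes of low genes. The plan had assumed RPKM, and its test was kept. The TE change was the interaction term, and genes were called at a Benjamini-Hochberg adjusted p under 0.05 over all genes. Alternatives included edgeR and DESeq2 1.42.0 on the recovered reads, other scalings, filters and pseudocounts, and leaving out each replicate. Scripts were tested on simulated data. R 4.3.3, Python 3.11.15 and blastn 2.17.0 (word size 11) were used. Sequences, coding lengths and GC content came from GENCODE 44 and hg38, and 99.9% of shared genes lay at the same place in the deposited table.

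By the protocol, input and RPF of a given number share a lysate. Their deviations had an r of -0.016 in METTL5-WT and 0.053 in METTL5-KO, and those of equal numbers across genotypes 0.039 in input and -0.0021 in RPF. The members and lists were chosen with earlier results of these data known. The text names the 8 subunits, METTL5, up to 2 genes of a list by TE change among those called, and the 5 genes most like the subunits. Other list genes were named after their values were seen.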

Additional observations from a re-analysis of the deposited data

How the results depend on the processing

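Depth, 2 replicates and shared footprints limit these results. The number of subunits called in input was 0, and 0 to 3 when leaving out 1 library, and the number of all genes called was 3149, against 1947 with limma on the TE table or with the GC trend removed, and 1220 to 5474 without 1 library. In RPF, 5 subunits were called, 2 with quantile normalization or with no variance trend, and 1 to 5 when leaving out 1 replicate; all genes called then numbered 1986 to 2772. Their median log2 change of 0.36 was 0.16 with quantile normalization and 0.22 with the GC trend removed. In TE, 1 subunit was called, 4 with DESeq2, 0 with no variance trend, 2 with the length trend removed, 2 with the replicate block on the lysate in limma or edgeR, and 0 to 1 without 1 lysate. All genes called in TE numbered 538, 837 with DESeq2, 1 with no variance trend, 299 with the GC trend removed, 917 with edgeR and the replicate block (chosen after seeing the data, as were the window lengths and edgeR on RPF alone), and 4 to 266 without 1 lysate. The median TE difference of 0.37 was 0.24 with quantile normalization and 0.21 with the GC trend removed, with or without the replicate block. The block changed no other call of a subunit. A replicate block on the number, which the libraries of the genotypes share without any sign of pairing, called 3554 genes in input, 3141 in RPF and 588 in TE, and as many subunits in each as without it. The SD of log2 RPF density in METTL5-WT was 1.31 per exon length. With all reads divided by the length of windows without an exact match it was 1.33, and 1.83 for windows without a match within 2 mismatches. The difference of the SD per coding length between genotypes was -0.036 without CCT5.

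Directions reversed only for values that were not called in the main tests. CCT3 in RPF was 1 of these, although DESeq2 called it higher with a log2 change of 0.22. In input, CCT2 had 0.018 without a filter, 0.0037 with limma on the TE table, 0.099 with the GC trend removed and -0.016 to 0.0077 when leaving out 1 library. CCT4 had 0.0059 with the GC trend removed and -0.18 to 0.0022 without 1 library, and CCT7 had -0.0099 to 0.26. In RPF, TCP1 had -7.0e-05 and CCT3 -0.26 with quantile normalization, TCP1 -0.022 with the GC trend removed, and CCT6A -0.093 to 0.013 without 1 library. In TE, CCT3 had -0.17 and CCT6A -0.028 with quantile normalization, and CCT6A -0.11 with the GC trend removed. The cause was not tested.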
